A study of Mus musculus with 11 samples.

Results

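The large ribosomal subunit assembly factors described here are 53 mouse genes listed as encoding proteins that build, modify, remodel or export the precursor of the 60S subunit. They were taken from a list of symbols set by known function and drawn up with earlier results of these data known. All 53 were among the genes listed for soleus and for quadriceps. The 2 tables together listed 13359 genes. RNA was sequenced from soleus, a hindlimb muscle rich in slow fibres, and from quadriceps, a mostly fast hindlimb muscle, of mice labelled as 2.5 months old. The Myc-labelled animals carried a doxycycline-inducible tetracycline system for Myc overexpression, received doxycycline overnight and were sampled 12 hours after its removal, which gave 4 soleus and 2 quadriceps libraries. Controls were age-matched animals, with 3 soleus and 2 quadriceps libraries; whether they carried the transgene or received doxycycline is not given in the sources used here, nor is the promoter that drives the inducible system. No label says that replicates of a group came from separate animals, so p-values measure the spread between these libraries.

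As background, ribosomes are made in the nucleolus from a long ribosomal RNA (rRNA) precursor. Its large-subunit part is folded and trimmed by helicases, scaffold proteins, methyltransferases and nucleases, is then stripped of these factors by GTPases and AAA ATPases, and leaves the nucleus with export adaptors that are removed in the cytoplasm. Myc is a transcription factor known for driving genes of ribosome production, and in adult skeletal muscle ribosome production is known to rise when fibres grow.

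Reads over the listed genes were estimated at 11.1 to 14.9 M (M, reads in units of 1e6) per soleus library and 14.2 to 18.4 M per quadriceps library. These estimates rest on a step inferred from each library's values and are not the sequencing depth. Values are reads per gene divided by a size factor per library, called normalised reads below, and they are not corrected for gene length. The row of the targeted gene did not mark the groups. Myc had 26.3, 31.0, 28.8 and 27.7 normalised reads in the Myc-labelled soleus libraries, against 30.04, 54.3 and 28.2 in control soleus (log2 change -0.33 ± 0.40 SE, limma adjusted p = 0.690), and 86.4 and 33.6 in Myc-labelled quadriceps, against 114 and 55.7 in control quadriceps (-0.55 ± 0.56, adjusted p = 0.934). Whether that row would count transcripts of the transgene is not given in the sources used here, so every direction below rests on the labels. The muscles matched their markers in part. The sum of 8 slow-fibre markers was 498160 to 637130 in soleus, while in quadriceps it was 1795 and 2844 in Myc-labelled libraries, against 25843 and 188530 in controls, so that quadriceps control 2 held slow-fibre RNA at a level nearer to soleus than the others did. The sum of 9 fast-fibre markers was 425530, 569200, 682400 and 468190 in Myc-labelled soleus libraries 1 to 4, against 649440, 682240 and 650170 in controls, and 1758100 to 2476400 in quadriceps. In the soleus fit all 9 fast-fibre markers had an estimate below 0, with a median of -0.35, and 1 was called lower. The sum of 10 tendon markers was 8498, 7432.5, 2641 and 4078 in Myc-labelled soleus libraries 1 to 4, against 9627.5, 10429 and 8518 in controls, and it was 309.6 and 4532 in Myc-labelled quadriceps, against 4739.5 and 1669 in controls. Fibroblast sums were likewise low in Myc-labelled soleus libraries 3 and 4, with 18044, 18574, 6289 and 9350.1 in libraries 1 to 4, against 17905, 21497 and 14849 in controls. Erythroid sums were 6002, 7523, 4305 and 3277 in Myc-labelled soleus, against 7704, 7449.9 and 7444 in controls. Sums of fast-fibre, fibroblast, endothelial, macrophage, satellite cell, Schwann cell, adipocyte and erythroid markers overlapped between the soleus groups. None of the 10 tendon markers was at 0 in any soleus library, 1 was at 0 in Myc-labelled quadriceps library 1, and the part of these tissue differences in the results below was not tested. In whole tissue, fewer cells of a type and less RNA per cell cannot be told apart.

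In Myc-labelled soleus, assembly factor transcripts were higher across nearly every stage of the pathway. With limma on log2(value + 1) and adjustment over all 12745 genes tested, 42 of the 53 were called higher at an adjusted p under 0.05 and 0 were called lower, where 7.06% of all genes tested were called higher and 2.23% lower (9.29% in either direction). At an unadjusted p under 0.05, 50 members were higher and 0 lower, against 12.9% and 8.77% of all genes, and the estimate was above 0 for all 53, against 45.6%. The median log2 change of the 53 was 0.98, against -0.035 for all genes tested. The groups did not overlap, with every Myc-labelled library above every control, for 48 of the 53, against 12.7% of all genes. An increase of at least 2-fold in the fitted value was seen in 26 members, against 2.97% of all genes. The largest changes belonged to Mdn1 (log2 1.99), Ftsj3 (1.83), Grwd1 (1.73) and Ppan (1.72), and the smallest to Rpf1 (0.13) and Rrp1 (0.15).

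**Figure D1:**
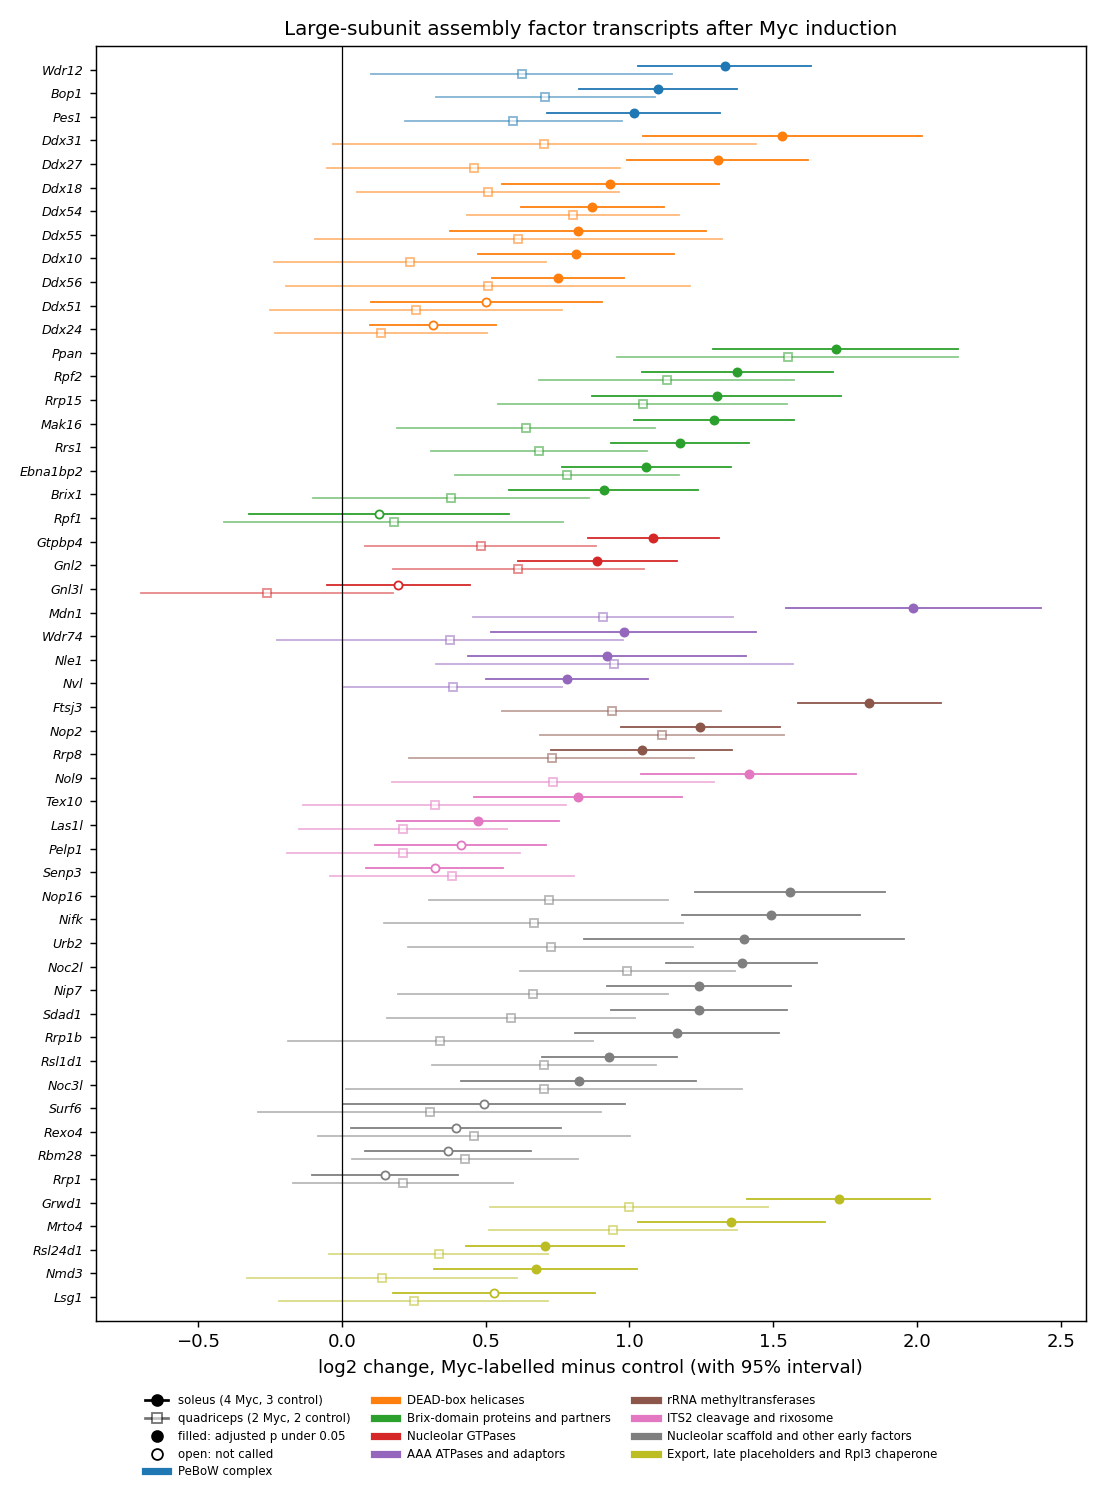
Log2 change (Myc-labelled minus control, with 95% interval) of each of the 53 members, ordered by role from the top, with soleus as circles and quadriceps as squares. Filled circles mark the 42 members called higher in soleus; open symbols, including all 53 quadriceps squares, mark changes that were not called.

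Fitted without Myc-labelled soleus libraries 3 and 4, the 2 with low tendon markers, 35 members were called higher and their median log2 change was 0.85, with 481 genes called higher in all from 2 fewer libraries. Exons of 18 members overlap those of another gene in GENCODE M21, and the strand setting of the counting is not given in the sources used here, so these values may include reads of the overlapping gene. The longest overlaps were 1137 bases between Nvl and the pseudogene Fgfr3-ps, 696 between Mak16 and Tti2, 598 between Noc2l and Samd11, 562 between Ddx54 and Gm43579, and 473 between Urb2 and Gm45732. All of these are on opposite strands. On the same strand, Ppan overlaps the snoRNA genes Gm23008 by 80 bases and Gm24067 by 85, and Rsl24d1 overlaps Gm20509 by 114. There a strand setting would not separate the reads.

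Promoter sequence from RefSeq (GRCm38.p6) was at hand for 47 of the members. It was searched for CACGTG, the canonical E-box to which Myc with its partner Max is known to bind, a palindrome that reads alike on both strands. A gene was counted if any of its promoters held the word. In the 250 bases before the start, 4 of 47 members (8.51%) held it. The share was 10.1% of the 10138 genes with a promoter that were tested in soleus and 6.86% of all 27025 genes with a promoter. When the window was extended to 50 bases after the start, a choice made after seeing the first result, 10 of 47 (21.3%) held it, against 12.0% and 8.09%. The variant CACGCG, or CGCGTG on the other strand, was in 9 of 47 (19.1%) in the first window, against 16.6% and 8.66%, and in 17 of 47 (36.2%) in the extended one, against 20.1% and 10.5%. The 10 members with CACGTG are shown because they place the word relative to the start; 9 of them were called higher in soleus, Pelp1 being the other, where 38 of all 47 members with a promoter were called. Their median soleus log2 change was 1.13, against 0.93 for the 37 without it. In the first window CACGTG was in 3 of 38 called and 1 of 9 uncalled members, and in the extended window CACGCG was in 13 of 38 called and 4 of 9 uncalled members. Each line gives 30 bases, 5′ to 3′ on the gene's strand, with CACGTG in capitals, ordered by the soleus change.
Mdn1 (chr4:32657139-32657168, plus strand): caacgtgaattccttcacCACGTGtgtgtc
Grwd1 (chr7:45830740-45830769, minus strand): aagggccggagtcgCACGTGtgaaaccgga
Rpf2 (chr10:40246988-40247017, minus strand): aagtaatcggtaCACGTGcattcgctaagg
Nop2 (chr6:125131811-125131840, plus strand): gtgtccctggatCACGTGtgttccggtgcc
Sdad1 (chr5:92309986-92310015, minus strand): agcggcgtgtccCACGTGccgtttccggtt
Pes1 (chr11:3963965-3963994, plus strand): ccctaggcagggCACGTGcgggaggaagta
Nle1 (chr11:82908355-82908384, minus strand): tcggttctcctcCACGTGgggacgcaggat
Tex10 (chr4:48473449-48473478, minus strand): gcgacctgcggtCACGTGagcgcggcgagg
Nmd3 (chr3:69721929-69721958, plus strand): cgccccttgctaCACGTGtattctttgacc
Pelp1 (chr11:70410243-70410272, minus strand): tttcctgcagacCACGTGtccggcctgcgc
Counted from the first base of the transcript as 1, the word begins at 39 in Mdn1, 35 in Grwd1, 22 in Sdad1, 3 in Pes1 and 24 in Nle1, and before the start, at -26 in Rpf2, -60 in Nop2, -3 in Tex10, -114 in Nmd3 and -229 in Pelp1. A match is a word in the sequence and not a measured binding site.

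All 3 subunits of the PeBoW complex, which is needed for maturation of the large-subunit rRNA, rose in soleus, with a median log2 change of 1.10. Wdr12, the WD-repeat subunit, had 569, 587, 782 and 673 normalised reads in the Myc-labelled libraries, against 263, 279 and 230.1 in controls. Its mean was 653 ± 97.2 against 258 ± 25.1 (SD, n = 4 and 3), a log2 change of 1.33 ± 0.14 (SE; limma adjusted p = 9.58e-06). Bop1, the scaffold subunit, had 705, 776, 771 and 995 in Myc-labelled soleus, against 355, 397 and 374 in controls, and rose by 1.10 ± 0.13 (adjusted p = 3.09e-05). Pes1, the BRCT-domain subunit, had 713, 767, 1071 and 884, against 426, 466 and 371 in controls (1.02 ± 0.14, adjusted p = 1.61e-04). For each subunit the lowest Myc-labelled library lay well above the highest control.

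Among the 9 DEAD-box helicases, which unwind or clamp rRNA during folding, 7 rose, with a median of 0.82. Ddx27, which acts with the PeBoW complex, had 435, 409, 507 and 480.0 normalised reads in Myc-labelled soleus, against 178, 209.5 and 167 in controls (2.48-fold between means; log2 1.31 ± 0.15, adjusted p = 2.05e-05). Ddx54, counterpart of yeast Dbp10, had 1145, 1055, 1249 and 1379.6, against 633, 743 and 601 in controls (0.87 ± 0.12, adjusted p = 1.20e-04). Both separated the groups with no overlap. The log2 change was 1.53 for Ddx31, counterpart of yeast Dbp7, 0.93 for Ddx18, counterpart of yeast Has1, 0.82 for Ddx55, counterpart of yeast Spb4, 0.81 for Ddx10 and 0.75 for Ddx56, counterpart of yeast Dbp9, with adjusted p from 2.25e-04 for Ddx56 to 0.0201 for Ddx55. Ddx51, counterpart of yeast Dbp6, had 187, 167, 167 and 168 in Myc-labelled libraries, against 111, 132 and 121 in controls; the groups did not overlap, yet the change of 0.50 ± 0.19 did not pass (adjusted p = 0.122). Ddx24, counterpart of yeast Mak5, likewise separated the groups without passing (0.32 ± 0.10, adjusted p = 0.0687), but it was called under library-size scaling (adjusted p = 0.0211) and TMM scaling (0.0476). The call of Ddx55 did not hold without Myc-labelled library 4 (adjusted p = 0.0685), control 2 (0.0608) or control 3 (0.0684). Without Myc-labelled libraries 3 and 4 together it was lost (0.137), as was that of Ddx10 (0.0519).

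Brix-domain proteins bind rRNA together with a partner protein, and 7 of the 8 genes for these proteins and partners rose, with a median of 1.24. Rrs1, which with Rpf2 brings the 5S rRNA particle to the precursor, had 887, 908, 963 and 969.9 normalised reads in Myc-labelled soleus, against 463, 377 and 398 in controls, with means of 932 ± 40.7 and 413 ± 44.7 (SD, n = 4 and 3). Its log2 change was 1.18 ± 0.11 (adjusted p = 3.99e-06). Mak16, the partner of Rpf1, had 575, 506, 604 and 602, against 242, 215 and 239 in controls (1.29 ± 0.13, adjusted p = 5.95e-06). In contrast, Rpf1 itself had 168, 200.1, 257 and 309.8 in Myc-labelled libraries, against 185, 188 and 259 in controls; the groups overlapped and the change was 0.13 (95% interval -0.33 to 0.58, adjusted p = 0.784). Without Myc-labelled library 4 the Rpf1 estimate changed sign to -0.020. The other members rose by 1.72 for Ppan, counterpart of yeast Ssf1, 1.38 for Rpf2, 1.30 for Rrp15, the partner of Ppan, 1.06 for Ebna1bp2 and 0.91 for Brix1, with adjusted p from 2.05e-05 for Rpf2 to 9.81e-04 for Brix1.

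Of the 3 nucleolar GTPases, 2 rose. Gtpbp4, counterpart of yeast Nog1, had 1252, 1304, 1586 and 1452 normalised reads in Myc-labelled soleus, against 684, 649.9 and 636 in controls (2.13-fold between means; log2 1.08 ± 0.11, adjusted p = 5.00e-06). Gnl2, counterpart of yeast Nog2, which holds the late nuclear particle back until it is mature, had 827, 838, 1069.7 and 1125, against 539.9, 465 and 547 in controls (0.89 ± 0.13, adjusted p = 2.65e-04). Gnl3l, a relative of nucleostemin, had 781, 655, 613 and 734 in Myc-labelled libraries, against 597, 631 and 586 in controls. Its groups overlapped, and the change of 0.20 ± 0.12 did not pass (adjusted p = 0.358).

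All 4 AAA ATPases and adaptors rose, with a median of 0.95. Mdn1, a giant dynein-like ATPase that pulls assembly factors off the particle, showed the largest change of the 53: 409.8, 379, 351 and 311 normalised reads in Myc-labelled soleus, against 128, 69.8 and 82.2 in controls. Its mean was 363 ± 42.1 against 93.4 ± 30.7 (SD, n = 4 and 3), 3.88-fold higher, with a log2 change of 1.99 ± 0.21 (adjusted p = 9.21e-06). Nle1, a substrate on which Mdn1 pulls, had 133, 144, 208 and 170.2, against 84.8, 97.0 and 74.0 in controls (0.92 ± 0.23, adjusted p = 0.0164). Nvl, the ATPase that releases Wdr74, had 540.3, 527, 613 and 682, against 369, 348 and 308 in controls (0.78 ± 0.13, adjusted p = 9.46e-04), and Wdr74 rose by 0.98 ± 0.22 (adjusted p = 0.00795). None of the 4 overlapped between groups. The Nle1 call was lost without Myc-labelled library 3 (adjusted p = 0.0578) or control 3 (0.0551), and without Myc-labelled libraries 3 and 4 together the calls of Nle1 (0.175) and Wdr74 (0.116) were lost.

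The 3 rRNA methyltransferases rose, with a median of 1.25, the highest of the 9 role groups. Ftsj3, which methylates rRNA riboses and is the counterpart of yeast Spb1, had 1414, 1334, 1789 and 1708 normalised reads in Myc-labelled soleus, against 429, 434 and 438 in controls. Controls lay within a few reads of each other, and the means of 1561 ± 221 and 434 ± 4.23 (SD, n = 4 and 3) gave a log2 change of 1.83 ± 0.12 (adjusted p = 6.99e-08). Nop2, a cytosine methyltransferase of the large-subunit rRNA, had 702, 827, 892 and 909, against 359.6, 303 and 389 in controls (1.25 ± 0.13, adjusted p = 8.90e-06). Rrp8, an adenine methyltransferase, had 351, 339, 423 and 399, against 185, 182 and 179.6 in controls (1.04 ± 0.15, adjusted p = 1.93e-04).

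The ITS2 cleavage and rixosome group, which cuts and trims the internal spacer of the large-subunit precursor, had the smallest median, 0.47, and 3 of 5 members rose. Nol9, the kinase that acts on the cut RNA end, had 350.4, 475, 507 and 340.4 normalised reads in Myc-labelled soleus, against 150.2, 172 and 141 in controls (2.71-fold between means; log2 1.41 ± 0.18, adjusted p = 5.28e-05). Tex10, a rixosome scaffold, had 297, 274, 302 and 247, against 157, 137 and 182 in controls (0.82 ± 0.17, adjusted p = 0.00474). Las1l, the nuclease that cuts the spacer, rose by 0.47 ± 0.13 (adjusted p = 0.0343). The Las1l call was lost without Myc-labelled library 1 (adjusted p = 0.0529), 3 (0.0973) or 4 (0.0560) without control 2 (0.178) or 3 (0.0623), and without Myc-labelled libraries 3 and 4 together (0.185). Senp3, the SUMO protease of the complex, had 569, 563, 572 and 597 in Myc-labelled libraries, against 483, 446 and 451 in controls; the groups did not overlap, and the change of 0.32 ± 0.11 did not pass (adjusted p = 0.0901). Pelp1, another scaffold of the complex, overlapped between groups, with a change of 0.41 ± 0.14 (adjusted p = 0.0810), and it was called without Myc-labelled library 1 (adjusted p = 0.0257) and under library-size scaling (0.0434).

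Of the 13 nucleolar scaffold proteins and other early factors, 9 rose, with a median of 1.17. Noc2l, a partner of Noc3l, had 1498, 1550.3, 2108 and 1852 normalised reads in Myc-labelled soleus, against 657, 604 and 729 in controls, with means of 1752 ± 284 and 663 ± 62.4 (SD, n = 4 and 3). The log2 change of Noc2l was 1.39 ± 0.12 (adjusted p = 1.90e-06). Nifk, which also binds the proliferation protein Ki-67, had 589, 549, 678 and 619, against 232, 243 and 176 in controls (1.49 ± 0.15, adjusted p = 4.37e-06). Both separated the groups. Rrp1 had 1354, 1239, 1795 and 1469 in Myc-labelled libraries, against 1255, 1251 and 1423 in controls; these overlapped, and the change of 0.15 ± 0.12 did not pass (adjusted p = 0.509), whereas its paralog Rrp1b rose by 1.17 ± 0.17 (adjusted p = 2.06e-04). The remaining log2 changes that passed were 1.56 for Nop16, 1.398 for Urb2, 1.24 for Nip7, 1.24 for Sdad1, counterpart of yeast Sda1, 0.93 for Rsl1d1 and 0.82 for Noc3l, with adjusted p from 5.38e-06 for Nop16 to 0.0112 for Noc3l. The Noc3l call was lost without control 2 (adjusted p = 0.0759) and without Myc-labelled libraries 3 and 4 together (0.142). Another 3 early factors did not pass, namely Rbm28, counterpart of yeast Nop4 (0.37 ± 0.14, adjusted p = 0.113), Surf6 (0.49 ± 0.23, adjusted p = 0.225) and Rexo4 (0.40 ± 0.17, adjusted p = 0.189).

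Among the export and late factors, 4 of 5 rose, with a median of 0.71. Grwd1, a dedicated chaperone of the ribosomal protein Rpl3, had 607, 541, 684 and 649 normalised reads in Myc-labelled soleus, against 224, 180.4 and 158 in controls, a 3.30-fold difference of means (log2 1.73 ± 0.15, adjusted p = 1.44e-06). Mrto4, which holds the place of the stalk protein Rplp0 on the precursor, had 401, 427, 494 and 539, against 162, 183 and 197 in controls (1.35 ± 0.15, adjusted p = 1.99e-05). Rsl24d1, the placeholder for Rpl24, rose by 0.71 ± 0.13 (adjusted p = 0.00184). Nmd3, the adaptor to the export receptor Xpo1, rose by 0.67 ± 0.17 (adjusted p = 0.0166), a call lost without Myc-labelled library 3 (adjusted p = 0.0560), control 2 (0.0883) or Myc-labelled libraries 3 and 4 together (0.113). Lsg1, the cytoplasmic GTPase that removes Nmd3, had 306, 343, 428 and 399 in Myc-labelled libraries, against 278, 207 and 283 in controls. Its groups did not overlap, the change was 0.53 ± 0.17 (adjusted p = 0.0578), and it was called without Myc-labelled library 1 (adjusted p = 0.0386), under library-size scaling (0.0331) and under TMM scaling (0.0476).

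Gtpbp4 and Mrto4 have named pseudogene copies in GENCODE M21, so their values may share reads with those copies. Gtpbp4 also overlaps the unprocessed pseudogene Gm48649 by 261 bases on the opposite strand. Whether other members have copies under other names is not given here.

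Other 60S factors outside the 53 and neighbouring parts of ribosome production were set beside them as counts. Of 28 other 60S factors tested, 16 were called higher and 0 lower, with a median log2 change of 0.56. Gnl3 (nucleostemin) had 1146, 1186, 1399 and 1186 normalised reads in Myc-labelled soleus, against 216, 276 and 219.5 in controls (2.37 ± 0.13, adjusted p = 2.11e-08), a larger change than that of any member. Nol8, a nucleolar protein, had 633, 515, 715 and 611, against 206, 245 and 222 in controls (1.45 ± 0.14, adjusted p = 4.25e-06). Pa2g4, counterpart of the yeast export factor Arx1, had 1356, 1336, 1519.9 and 1547, against 751, 726 and 679 in controls (1.0001 ± 0.10, adjusted p = 6.02e-06), and Heatr3, which serves import of the 5S particle proteins, had 1163, 1002, 1217 and 1110.4, against 579.6, 499.6 and 559 in controls (1.04 ± 0.11, adjusted p = 9.36e-06). In all 4 of these genes every Myc-labelled library was above every control. Xpo1, the general nuclear export receptor, had 722, 534, 568 and 621 in Myc-labelled libraries, against 546, 578 and 619.8 in controls (0.064, 95% interval -0.20 to 0.33, adjusted p = 0.820). Isg20l2, an exonuclease that trims a large-subunit rRNA, had 252, 247, 219.9 and 248, against 239, 286 and 205 in controls (95% interval of the log2 change -0.35 to 0.35, adjusted p = 0.999); for these last 2 genes the groups overlapped. Of the small-subunit factors, 36 of 47 were called higher, with a median of 0.81, and of the large-subunit ribosomal proteins, 26 of 46, with a median of 0.44; in neither list was a gene called lower.

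Library by library, the 53 transcripts together made up 0.251%, 0.252%, 0.271% and 0.273% of all normalised reads in Myc-labelled soleus libraries 1 to 4, against 0.137%, 0.133% and 0.136% in controls. The median over members of the log2 distance to the control mean was 0.91, 0.87, 1.12 and 1.07 in the Myc-labelled libraries, whereas the median over all genes was -0.0062, -0.00051, -0.012 and -0.0089. Libraries 3 and 4 held the highest value of their group for 25 and 21 members, against 6 and 1 for libraries 1 and 2. These are also the libraries with the low tendon, fibroblast and erythroid sums given above, and the part of tissue composition in this order was not tested. At least 50 of the 53 members exceeded the highest control in every Myc-labelled soleus library, against 28.1% to 31.5% of all genes.

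**Figure D2:**
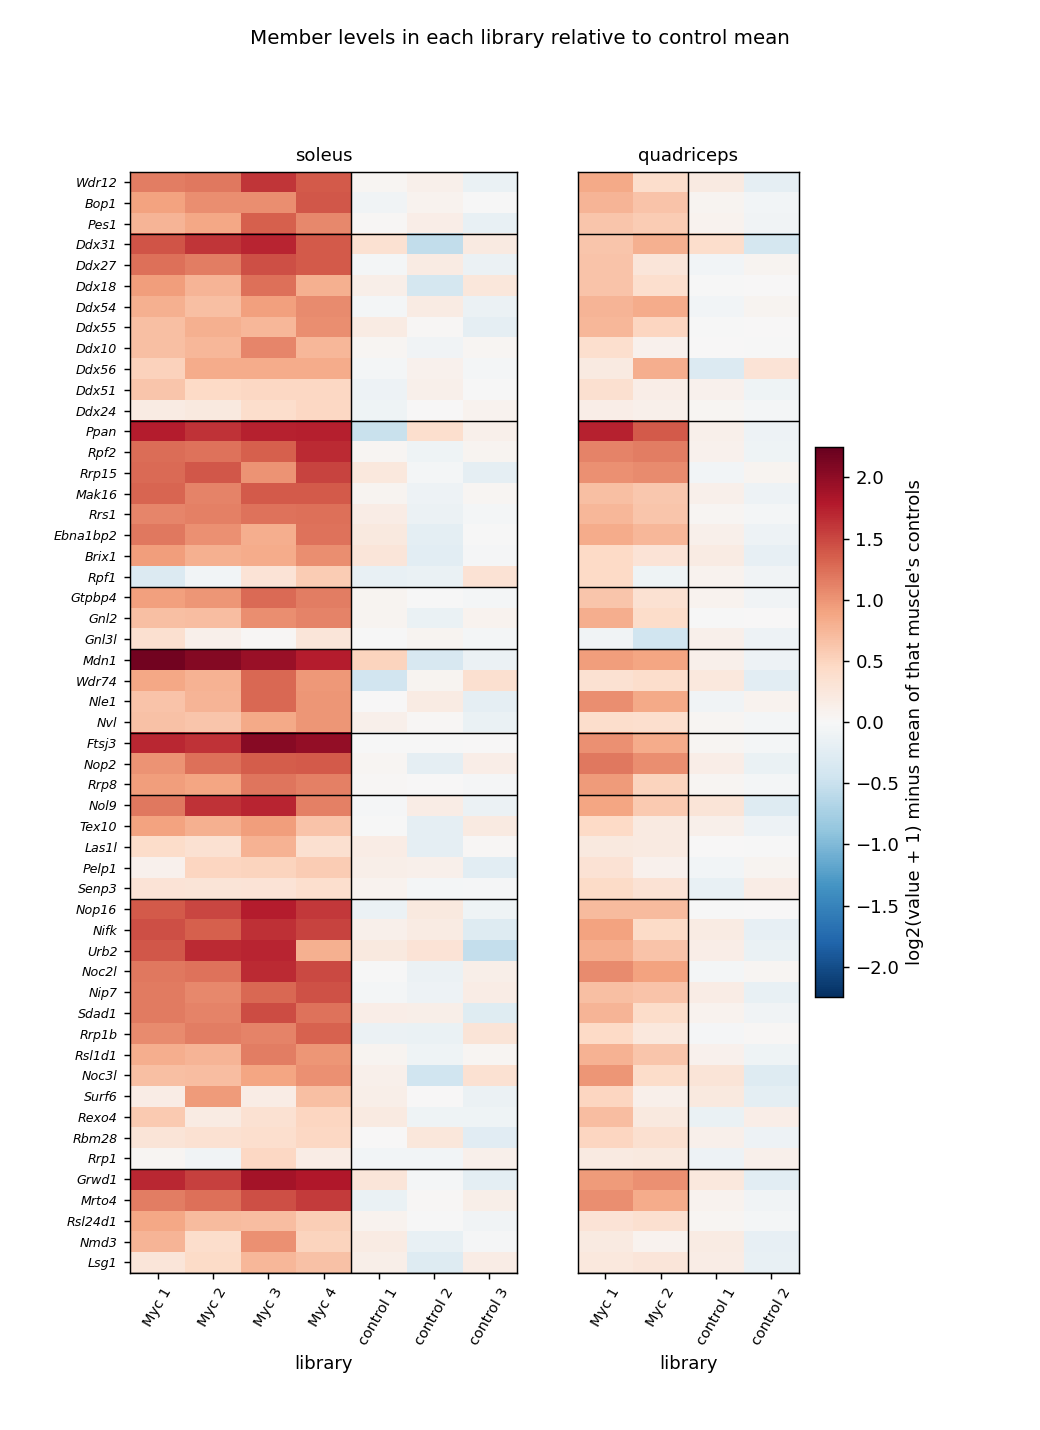
Each cell gives a member's log2(value + 1) in a library minus the mean of that muscle's controls, with Myc-labelled libraries left of controls and lines between role groups. Red spans nearly all rows of the 4 Myc-labelled soleus libraries, with library medians of 0.91, 0.87, 1.12 and 1.07; the 2 Myc-labelled quadriceps libraries are paler, at 0.68 and 0.41.

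In quadriceps the same transcripts were mostly higher in the Myc-labelled libraries, but none passed the test over all genes. With limma, 0 of the 53 were called in either direction, where 1 of the 12270 genes tested was called higher (0.00815%) and 0 lower. At an unadjusted p under 0.05, 31 members were higher and 0 lower, against 3.97% of all genes higher and 2.24% lower. The estimate was above 0 for 52 of the 53, against 45.8% of all genes, with a median of 0.61 against -0.031. The groups did not overlap for 48 members, against 18.3% of all genes. Together the members took 0.177% and 0.178% of the normalised reads in Myc-labelled libraries, against 0.116% and 0.117% in controls.

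Calls in quadriceps depended on the fit. When all 11 libraries were fitted together, 10 members were called: Nop2 (adjusted p = 0.00978), Ftsj3 (0.0129), Noc2l (0.0133), Rpf2 (0.0139), Ppan (0.0153), Ddx54 (0.0300), Mrto4 (0.0369), Grwd1 (0.0391), Rrs1 (0.0391) and Rsl1d1 (0.0425), with 94 genes called in all. Without Myc-labelled quadriceps library 2, 4 were called, namely Ppan (adjusted p = 0.0116), Nop2 (0.0222), Noc2l (0.0355) and Ftsj3 (0.0438), with 106 genes in all; the lone Myc-labelled library is then assumed to vary like the controls. Library 1 held the higher Myc-labelled value for 42 members, and the library medians were 0.68 and 0.41.

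The largest quadriceps change was that of Ppan, with 281 and 220.1 normalised reads in Myc-labelled libraries, against 91.7 and 77.3 in controls (log2 1.55 ± 0.26, unadjusted p = 3.55e-04, limma adjusted p = 0.227). Rpf2 had 378 and 387, against 186 and 164 in controls (1.13 ± 0.19, adjusted p = 0.231), and its partner Rrs1 had 774 and 709.6, against 477 and 445 (0.69 ± 0.16, adjusted p = 0.400). Mak16 had 341 and 323 in Myc-labelled quadriceps, against 231 and 196 in controls (0.64 ± 0.19). These 4 Brix-group genes had no overlap, unlike Rpf1, which had 245 and 167, against 189 and 168 in controls (0.18 ± 0.25). Among the methyltransferases, Nop2 had 733 and 659, against 357 and 288 in controls (1.11 ± 0.18, adjusted p = 0.227). Ftsj3 had 934 and 818, against 469 and 443 (0.94 ± 0.16, adjusted p = 0.268), and Rrp8 had 446 and 326, against 237 and 223 (0.73 ± 0.21). All 3 kept both Myc-labelled libraries above both controls, as did the PeBoW subunits. Bop1 had 715 and 656 in Myc-labelled quadriceps, against 439 and 401 in controls. Wdr12 had 607 and 441, against 384 and 293, and Pes1 had 728 and 695, against 498 and 444. Their log2 estimates lay close together, at 0.71, 0.62 and 0.60 in that order.

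Mdn1 had 355 and 343 normalised reads in Myc-labelled quadriceps, against 201 and 171 in controls (0.91 ± 0.19). Nle1 had 162 and 143, against 74.3 and 83.1 (0.95 ± 0.27), and Nvl had 499 and 492, against 389.9 and 369 (0.38 ± 0.16). In these 3 AAA-group genes the groups were apart. Of the helicases, Ddx54 had 846 and 889 in Myc-labelled libraries, against 476 and 518 in controls (0.80 ± 0.16). Ddx27 had 299 and 229.9, against 182 and 199 (0.46 ± 0.22), and Ddx51 had 223 and 192, against 185 and 163 (0.26 ± 0.22). An unadjusted p under 0.05 was reached by 2 of the 9 helicases, Ddx54 and Ddx18, by 3 of 3 methyltransferases and by 3 of 3 PeBoW subunits. The GTPase Gtpbp4 had 1121 and 925, against 767 and 692 in controls (0.48 ± 0.17), and Gnl2 had 958 and 719, against 539.6 and 545 (0.61 ± 0.19). Gnl3l was the 1 member with an estimate below 0, with 916 and 708 in Myc-labelled libraries, against 1039.8 and 896 in controls (-0.26 ± 0.19, unadjusted p = 0.206); its groups overlapped.

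In the spacer-processing group, Nol9 had 499 and 404 normalised reads in Myc-labelled quadriceps, against 331 and 219 in controls (0.73 ± 0.24). Tex10 had 369 and 309.9, against 293 and 249 (0.32 ± 0.20), and Senp3 had 544 and 504, against 359 and 449 (0.38 ± 0.18). Nol9 was the 1 of these 5 genes with an unadjusted p under 0.05. The scaffold protein Noc2l had 1330.2 and 1193, against 610.4 and 656 in controls (0.99 ± 0.16, adjusted p = 0.227). Nifk had 599.6 and 432, against 364 and 282 (0.67 ± 0.22), and Rrp1 had 986 and 993, against 790.3 and 923 (0.21 ± 0.16). None of these 3 overlapped between groups, although the Rrp1 interval of -0.17 to 0.59 includes 0. Of the late factors, Grwd1 had 473 and 496, against 284 and 206 in controls (0.9982 ± 0.21). Mrto4 had 486 and 416, against 246 and 222 (0.94 ± 0.19), and Lsg1 had 297 and 303, against 284 and 224 (0.25 ± 0.20). Outside the 53, Gnl3 had 1042 and 946 in Myc-labelled quadriceps, against 436 and 332 in controls (1.38 ± 0.19, adjusted p = 0.195), and 10 of 28 other 60S factors were higher at an unadjusted p under 0.05, with 1 lower.

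Whether the change differed between muscles was tested as an interaction in 1 fit over all 11 libraries. Titles repeat the same replicate numbers in both muscles, so soleus and quadriceps libraries may share an animal, and the fit took all 11 as independent. The change was larger in soleus for 47 of the 53 members, against 54.2% of all genes, with a median difference of 0.40 against 0.028. No member was called different with limma, and neither was any of the 11971 genes tested (0.0% called in either direction). With limma's robust moderation switched off, 4 genes were called different and 0 members. At an unadjusted p under 0.05, 16 members had a larger change in soleus and 0 in quadriceps, against 2.59% and 0.593% of all genes. Ftsj3 had the smallest p, with a difference of 0.90 ± 0.20 (unadjusted p = 3.87e-04, adjusted p = 0.390). Mdn1 had the largest difference, 1.08 ± 0.32 (unadjusted p = 0.00466, adjusted p = 0.999). Differences were 0.85 for Ddx27, 0.84 for Nop16, 0.83 for Nifk, 0.82 for Rrp1b and 0.73 for Grwd1, each at an unadjusted p under 0.05. Ppan and Nop2 were not among the 16: their log2 changes were 1.72 in soleus and 1.55 in quadriceps for Ppan, and 1.25 and 1.11 for Nop2. The count of 16 became 8 without Myc-labelled quadriceps library 2 or control quadriceps library 1, and 10 without Myc-labelled soleus libraries 3 and 4. Shares of all genes at that threshold in these fits are not given here. The quadriceps groups also differed in their slow-fibre sums, given above, and the part of that in this comparison between muscles was not tested.

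**Figure D3:**
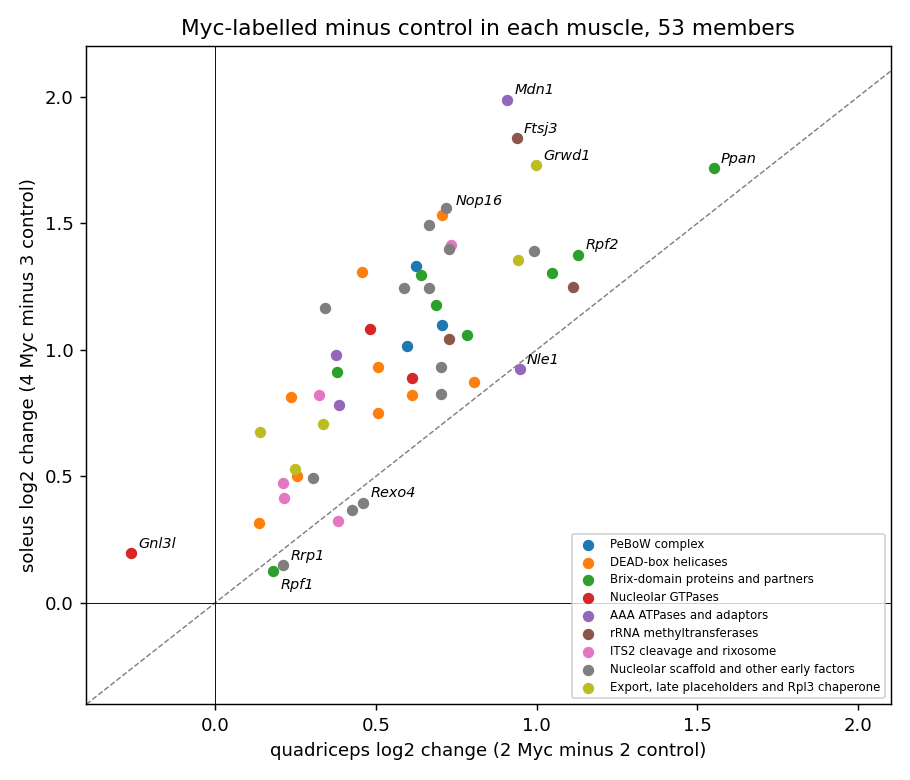
Each point is a member, with the quadriceps log2 change (Myc-labelled minus control) on the horizontal axis and the soleus change on the vertical axis; the dashed line marks equal change and colours give the role group. Of the 53 points 47 lie above the line, with Mdn1 and Ftsj3 far above it and Ppan at the right close to it.

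Across the 53 members, soleus and quadriceps changes had Pearson r = 0.78 and Spearman rho = 0.80, against 0.46 and 0.51 over all 11971 genes. Genes share libraries, so this describes the genes and carries no test.

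Partner proteins and paralogs were compared as log2 ratios of their values within each soleus library, which cancels library scaling up to the pseudocount of 1. Gene length stays in each ratio and cancels only in the difference between groups. The 12 pairs were tested with an exact two-sided permutation test over 35 splits, whose smallest possible p is 0.0286. After adjustment over the 12 pairs 0 had an adjusted p under 0.05. With that smallest p, no pair could pass unless most of the 12 were at it, so the count of 0 cannot tell whether a single pair moved apart. In 5 pairs the ratios did not overlap between groups and p was at that minimum (adjusted p = 0.0686). The Rpf1/Mak16 log2 ratio was -1.77, -1.33, -1.23 and -0.96 in Myc-labelled libraries, against -0.39, -0.19 and 0.12 in controls, a difference of -1.17. The Rrp1/Rrp1b ratio was 2.07, 1.85, 2.42 and 1.91, against 3.16, 3.17 and 2.91 in controls, a difference of -1.02. In both pairs the first gene was not called and the second rose. For Mdn1/Nle1 the ratio was 1.61, 1.39, 0.75 and 0.86, against 0.59, -0.47 and 0.15 in controls, a difference of 1.06. For Las1l/Nol9, the nuclease and kinase of the spacer cut, it was 1.04, 0.53, 0.88 and 1.04, against 2.02, 1.45 and 1.97 in controls, a difference of -0.94. For Noc2l/Noc3l it was 2.46, 2.49, 2.74 and 2.42, against 1.85, 2.27 and 1.77 in controls, a difference of 0.57. The other 7 ratios overlapped between groups, and their difference was 0.084 for Bop1/Pes1, -0.23 for Bop1/Wdr12, -0.15 for Brix1/Ebna1bp2, 0.20 for Rpf2/Rrs1, 0.41 for Ppan/Rrp15, -0.20 for Nvl/Wdr74 and -0.41 for Pelp1/Tex10, with unadjusted exact permutation p from 0.114 to 0.600.

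**Figure D4:**
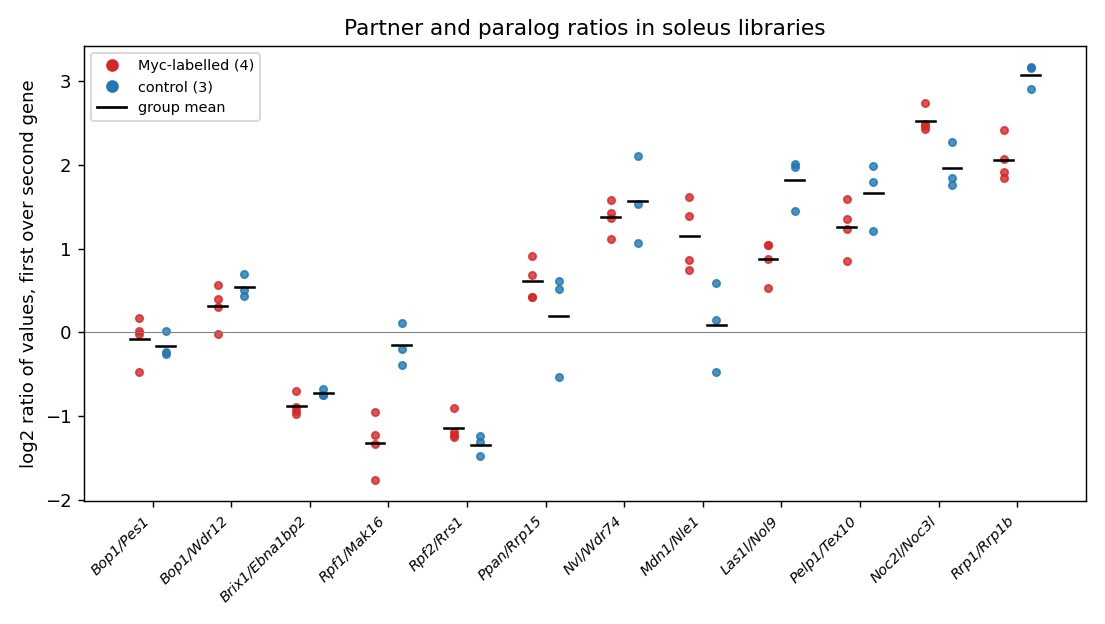
Log2 ratio of the first to the second gene of 12 partner or paralog pairs in each soleus library, with Myc-labelled libraries in red left of controls in blue and bars at group means. The groups are apart in the Rpf1/Mak16, Mdn1/Nle1, Las1l/Nol9, Noc2l/Noc3l and Rrp1/Rrp1b pairs and mixed in most others.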

How the data were processed

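The authors deposited 1 table per muscle of normalised signal, which per the values themselves is an estimated read count divided by a size factor for the library. STAR 2.7.8a, DESeq2 and Partek, and the builds mm10 and mm39, are named in the submitters' processing notes without saying what each did, so no coordinates of the files are given. Among values under 300 reads, 90.9% to 93.5% were whole multiples of a library's step within 0.02 of a read, which was judged too few to recover counts.

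Libraries were grouped by title. Log2(value + 1) was fitted for each muscle alone with limma 3.58.1 (R 4.3.3, statmod 1.5.0), using its trended and robust moderation and Benjamini-Hochberg adjustment. Genes were tested if they reached 10 in at least 3 soleus or, for quadriceps, 2 libraries. A fold change on this scale understates low genes. The fit was tested on simulated data, whose spread was changed after a first version recovered none of the changed genes in quadriceps, so that test does not vouch for the quadriceps fit. The 53 members, their role groups, the other lists and the pairs were chosen with earlier results of these data known. Values in every library were given for the 2 members with the smallest and the 1 with the largest soleus p in each role group, and for 4 and 2 of the other 60S factors in the same way; Ppan and Rpf2 in quadriceps were added after their values were seen. Replicate numbers were not taken to pair libraries. Alternatives changed the pseudocount (0.5 and 5), filter, scaling, moderation and libraries used. Late-life exercise, which the series mentions, is not analysed here.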

Additional observations from a re-analysis of the deposited data

Results flagged for a closer look

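In 3 of the 54 sets of 4 Myc-labelled soleus libraries examined (the 53 members and Myc), 1 library lay far from the other 3, measured as its gap to the nearest library divided by the range on the log2 scale; chance gives about 1 in 20 such sets. Ddx51 had 187 normalised reads in library 1, against 167 to 168 in the others, a ratio of 0.914 over a narrow range. Ddx56 had 1114 in library 1, against 1385 to 1388 in the others, a ratio of 0.989. Las1l had 930.3 in library 3, against 686 to 722 in the others, a ratio of 0.832. No member's change was called different between soleus and quadriceps.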

How the results depend on the processing

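Of the 42 soleus calls, 35 held in all 18 settings run, the main one included, and 51 of the 53 members stayed above 0 in every setting. Library-size scaling gave 45 calls and TMM scaling 44, with 1079 and 967 genes called higher in all. Leaving out each soleus library in turn gave 38 to 43 calls, with 657 to 789 genes called higher in all. The replicate block, a term for the number in the titles, gave 41, with 882 genes called higher in all. No soleus control is numbered 4, so the block gives the same soleus estimates as the fit without Myc-labelled library 4. Deviations of same-numbered Myc-labelled and control libraries had correlations of -0.353, -0.129 and 0.325 in soleus, so the numbers were not taken as pairs there. In quadriceps both were 0.266, which 2 libraries a group make equal, and 2 pairs are too few to tell. Between same-numbered soleus and quadriceps libraries they were 0.088 and 0.144 in Myc-labelled and 0.156 and 0.226 in control libraries, and whether these share an animal is not given in the sources used here. In quadriceps the block called 0 members and 4 genes. Quadriceps calls were 10 in the fit over all 11 libraries. With each quadriceps library left out, the member median was 0.41 to 0.68, against -0.029 to -0.0042 over all genes. The difference between muscles gave 8 to 18 such members over the libraries left out, 21 with the block and 10 without soleus Myc-labelled libraries 3 and 4. All genes called in soleus were 900 higher and 284 lower; library-size scaling gave 181 lower, the fit over 11 libraries 168, and both Myc-labelled libraries 3 and 4 left out 481 higher and 143 lower; genes called lower were 154 without Myc-labelled library 4 and 159, 116 and 167 without controls 1, 2 and 3. All genes called in quadriceps were 1, against 94 in the fit over 11 libraries and 3 to 106 with a library left out. The cause was not tested.

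Estimates that changed sign were all uncalled. In soleus, Rpf1 was -0.020 to 0.29 with each library left out and -0.18 without Myc-labelled libraries 3 and 4. The -0.020 came without Myc-labelled library 4, and the replicate block gave the same value for the reason given above. Rrp1 was -0.013 without libraries 3 and 4. Leaving out each library gave -0.019 to 0.13 for Xpo1 and -0.12 to 0.12 for Isg20l2, which was -0.013 with the block. In quadriceps the range over libraries left out was -0.053 to 0.33 for Nmd3, -0.095 to 0.46 for Rpf1 and -0.11 to 0.25 for Isg20l2. The Nvl/Wdr74 ratio change ranged from -0.45 to 0.074 over the soleus libraries left out. Of the 53 differences between muscles, 12 changed sign in at least 1 setting, and none of the 16 at an unadjusted p under 0.05 did.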
